A study of Mus musculus with 13 samples.

Results

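In 4T1 cells lacking Nup210, 1032 H3K27me3 peaks each overlapped 2 or more separate H3K27me3 peaks of the control cells by at least 1 bp. These bridged islands were 11.6% of the 8874 distinct H3K27me3 peaks of the knockout list. Another 5672 knockout peaks overlapped exactly 1 control peak and 2170 overlapped none. The islands were chosen by the H3K27me3 positions in both lists, so their H3K27me3 values are given as a description. The NUP210, nuclear pore complex (NPC) and H3K4me3 peaks were not used in the choice. IgG reads and gene bodies entered it indirectly, because peaks were called against IgG and the lists hold only peaks that meet a gene body.

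4T1 is a metastatic mammary tumor line from a BALB/cJ mouse. The control cells (sg-Ctrl) carried a non-targeting sgRNA, and the Nup210 knockout (KO) cells, KO-N13, came from CRISPR/Cas9 editing with an sgRNA against Nup210 followed by isolation of single cells. Both received the sgRNA by lentivirus with puromycin selection, and Cas9 was supplied for a short time by adenovirus. ChIP-seq gave 1 library per condition for H3K27me3 and H3K4me3 in sg-Ctrl and KO, and 1 each for NUP210 and NPC (antibody mAb414) in sg-Ctrl, each set against an IgG library. The H3K27me3 library of KO was 3.16 times deeper than that of sg-Ctrl. The effects of the knockout, of this clone and of sequencing depth cannot be told apart, and with so few libraries the conditions could not be tested against each other. Intervals below are 95% intervals that cover counting error alone. H3K4me3 peaks stood at the starts of 6 of 6 epithelial genes checked (Epcam, Krt8, Krt18, Cdh1, Cldn4 and Krt7) in both conditions, at 1 of 4 leukocyte genes (Cd68) and at none of 2 endothelial or 2 neuronal genes. Nup210 itself had an H3K4me3 peak in both, with 885 and 913 reads, and no H3K27me3 peak in either list.

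H3K27me3 is the mark that Polycomb repressive complex 2 writes on the tail of histone H3. Its EZH2 subunit carries the methyltransferase activity, and the EED subunit binds the finished mark, so that the mark can spread along chromatin into broad domains over silent developmental and tissue-restricted genes. A peak caller for broad marks divides the genome into windows, keeps those with enough reads and joins kept windows that are separated by short gaps into an island. H3K4me3 is found at the starts of active or poised genes. NUP210 is a membrane glycoprotein of the nuclear pore, and the NPC antibody mAb414 recognises several nucleoporins that carry phenylalanine and glycine repeats.

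Few bridged gaps held a gene start with H3K4me3, much as in other KO peaks. Protein-coding promoters with H3K4me3 were 5% (1.96 to 12.2) of the 80 in gaps and 5.35% (4.42 to 6.47) of 1850 in other KO peaks. The share was 2.47% of 526 in joined sg-Ctrl peaks and 50.7% of all 21263. Of the genes with an H3K4me3 peak listed for the start in sg-Ctrl, 6 started between the joined H3K27me3 peaks of a bridged island: Gbp2, Ddx60, Gng11, Myh13, Ifit1 and 2010002M12Rik. Gbp2 encodes an interferon-inducible GTPase, Ddx60 an interferon-inducible helicase of antiviral defence and Ifit1 an interferon-induced protein that binds foreign RNA. Myh13 encodes a myosin heavy chain of eye muscle, and Gng11 a G protein gamma subunit. At 5 of the genes the H3K4me3 peak met the gap itself, whereas the peak listed for Myh13 lay 2400 bp outside its gap in sg-Ctrl and 2000 bp outside in KO. The promoters of Gbp2, Ddx60 and Ifit1, from RefSeq (GRCm38.p6), are shown because there H3K4me3 in both conditions met length that H3K27me3 peaks covered only in KO. They run from 250 bases before to 50 bases after the gene start on the plus strand: Gbp2 at chr3:142620413-142620712, Ddx60 at chr8:61927837-61928136 and Ifit1 at chr19:34640639-34640938. Capitals mark each match to GAAA followed, after any 2 bases, by GAAA again, on either strand, which are letters and a spacing shared by interferon-stimulated response elements. The motif was chosen after the gene names had been seen.
Gbp2: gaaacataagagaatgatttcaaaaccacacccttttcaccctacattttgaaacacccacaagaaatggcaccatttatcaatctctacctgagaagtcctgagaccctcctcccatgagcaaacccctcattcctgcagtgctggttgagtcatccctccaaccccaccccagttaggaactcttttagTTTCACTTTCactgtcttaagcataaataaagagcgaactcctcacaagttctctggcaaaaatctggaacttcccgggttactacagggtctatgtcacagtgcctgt
Ddx60: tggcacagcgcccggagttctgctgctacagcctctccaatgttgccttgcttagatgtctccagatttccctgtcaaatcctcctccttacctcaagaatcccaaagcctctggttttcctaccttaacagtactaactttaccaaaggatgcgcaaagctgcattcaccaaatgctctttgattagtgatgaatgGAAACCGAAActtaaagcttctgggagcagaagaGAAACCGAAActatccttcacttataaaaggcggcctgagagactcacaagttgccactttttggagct
Ifit1: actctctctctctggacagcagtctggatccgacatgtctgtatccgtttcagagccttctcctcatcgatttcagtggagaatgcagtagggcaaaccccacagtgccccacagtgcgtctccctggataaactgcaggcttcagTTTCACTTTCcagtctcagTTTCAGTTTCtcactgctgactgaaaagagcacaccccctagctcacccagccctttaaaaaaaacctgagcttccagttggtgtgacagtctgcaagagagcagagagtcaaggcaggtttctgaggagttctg

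The letters occurred at 2 positions in Ddx60, the first base of each at -53 and -19 from the gene start, and at 2 positions in Ifit1, at -104 and -85. Gbp2 held 1 match at -59. Over all protein-coding promoters of the same length, 3.35% of 21263 held a match. Of the 80 promoters whose gene started in a bridged gap, 9 held a match, but 3 of these are the genes whose names led to the motif. Without them the share was 6 of 77, or 7.79% (3.62 to 15.98). It was 6.65% (4.82 to 9.11) of 526 promoters in joined sg-Ctrl peaks, 1.75% (0.310 to 9.29) of 57 in flanks and 4.81% (3.93 to 5.88) of 1850 in other KO peaks, so the intervals overlapped. A match is a description of the letters and not evidence of a bound factor.

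Most of the 1032 islands joined a pair of peaks. A pair of sg-Ctrl peaks was joined in 725 islands (70.3%, 67.4 to 73.0), 3 peaks in 197, 4 in 62 and 5 in 31, and 17 islands joined more. In all, 2558 sg-Ctrl peaks were joined, 11 of them into 2 islands. The island on Nckap5 joined 13, more than any other. The median island was 62 kb wide, whereas the median KO peak that overlapped 1 sg-Ctrl peak was 16 kb wide. Together the islands held 32.4% of the length that KO peaks covered.

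The reverse arrangement was less common. In the sg-Ctrl list, 393 peaks overlapped 2 or more KO peaks (4.11% of 9555), so there were 2.63 bridged islands for each sg-Ctrl peak that was split in KO. The split peaks had a median width of 43 kb and held 457 gaps. These counts depend on how both lists were cut, as the deeper library could call peaks that the shallower one could not.

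**Figure D1:**
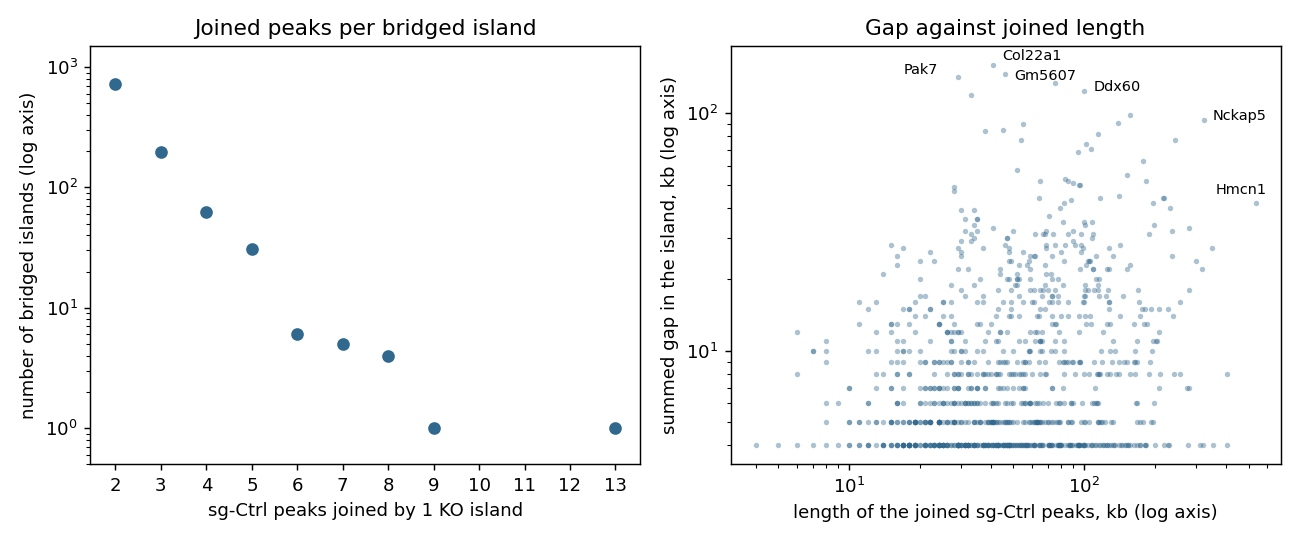
The points of the left panel give the number of bridged islands (log axis) against the number of sg-Ctrl peaks that each joins, and the right panel plots, for each island, the summed gap in kb against the length of the joined peaks in kb (both log axes). Islands that join 2 peaks are the most common at 725, most islands have a summed gap of a few kb, and the islands on Col22a1, Gm5607, Pak7 and Ddx60 are among those that stand highest.

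The space that was bridged was mostly narrow. The 1537 gaps between neighbouring joined peaks had a median of 5000 bp and ran from 4000 bp, the smallest distance between peaks in these lists, to 138 kb. Gaps of 4000 bp made up 38.9% (36.5 to 41.4), and 68.2% (65.8 to 70.5) were 6000 bp or less. Only 72 gaps (4.68%, 3.74 to 5.86) were wider than 20 kb, yet they held 23.8% of the gap length.

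Gaps and flanks took similar lengths. The gaps summed to 12.2 Mb, and the flanks, where an island ran beyond its outermost joined peaks, summed to 11.3 Mb. The joined peaks themselves were 66.9 Mb long, parts outside the islands included. An island had a median of 47 kb of joined peak, 6 kb of gap and 2 kb of flank, and 324 islands (31.4%) had no flank at all. Gaps were 14.6% and gaps with flanks 28.1% of the 83.6 Mb that only KO peaks covered. In the split sg-Ctrl peaks the gaps summed to 2.95 Mb and the flanks to 2.06 Mb.

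Most gaps lay inside genes. Of the 1537 gaps, 1335 (86.9%, 85.1 to 88.5) lay wholly within 1 gene body and 111 (7.22%) met no listed gene. The lists hold only peaks that meet a gene body, so in such a gap an sg-Ctrl peak between genes would not be seen. By chromosome, bridged islands were from 5.78% of the KO peaks on chromosome 4 to 16.9% on chromosome 19, and 12.3% on chromosome X.

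Narrow gaps between neighbouring peaks were joined more often than wide ones, in both directions. Over the 5548 pairs of neighbouring sg-Ctrl peaks in 1 gene body, KO joined 54.3% (51.2 to 57.5) of those 4 kb apart, 40.1% (36.4 to 44.0) of those 5 kb apart and 29.2% (26.2 to 32.4) of those 6 to 7 kb apart. The share was 14.5% (12.5 to 16.7) at 11 to 20 kb and 3.50% (2.49 to 4.90) at 21 to 50 kb. A single sg-Ctrl peak likewise joined 22.1% (19.5 to 25.1) of the pairs of KO peaks 4 kb apart, 16.1% (13.3 to 19.3) at 5 kb and 3.78% (2.73 to 5.21) at 11 to 20 kb. At 4 kb to 20 kb, KO joined 1301 of 4149 sg-Ctrl gaps (31.4%, 29.96 to 32.8) and sg-Ctrl joined 409 of 3843 KO gaps (10.6%, 9.71 to 11.7). Where the other library had a peak on both sides of the gap, the shares were 39.8% (38.2 to 41.5) and 16.6% (15.2 to 18.1).

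**Figure D2:**
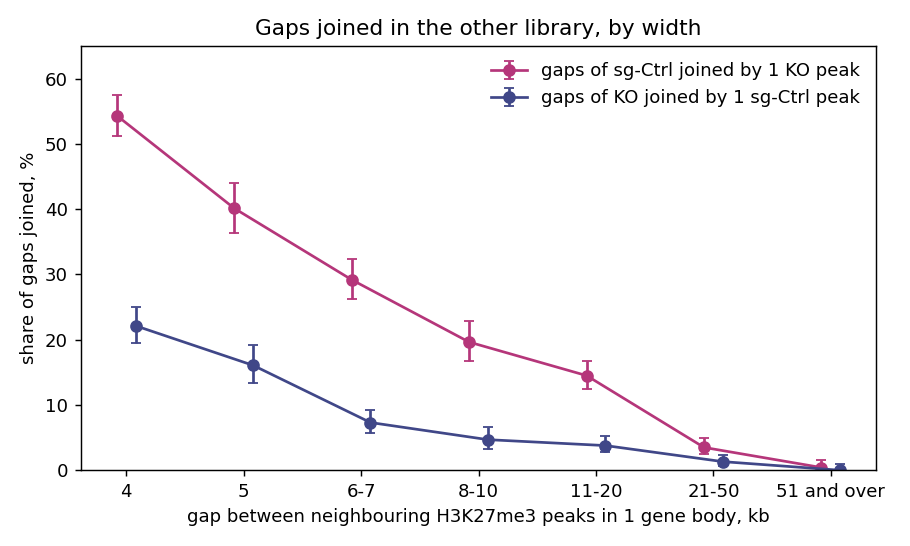
The share of neighbouring H3K27me3 peak pairs of 1 gene body that a single peak of the other library joins, in percent, is plotted against the gap between the peaks in kb, with 95% Wilson intervals as bars. Both lines fall with distance, from 54.3% and 22.1% at 4 kb, and the line for sg-Ctrl gaps joined in KO lies above the other at each width up to 50 kb.

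The strength of the sg-Ctrl peaks beside a gap differed little between joined and open gaps. The weaker peak of a pair had a median of 28.7 reads per kb (quartiles 24.9 to 34.1) at the 1301 joined gaps and 29.5 (25.2 to 34.96) at the 1965 gaps that KO left unjoined with a KO peak on both sides. These reads were divided by the ratio of ChIP to IgG library size, a scale that is shared by both H3K27me3 libraries. The open gaps were wider, with a median of 8 kb against 5 kb.

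The bridged islands were about as dense in H3K27me3 as the sg-Ctrl peaks they joined. KO had a median of 33.5 scaled reads per kb of island (quartiles 28.4 to 40.5), and sg-Ctrl had 34.0 (29.0 to 40.4) per kb of joined peak. On the log2 scale the KO density divided by the sg-Ctrl density had a median of -0.04 (-0.06 to -0.02). For the KO peaks that overlapped 1 sg-Ctrl peak it was -0.17 (-0.18 to -0.16). The KO density was the higher one in 456 islands (44.2%, 41.2 to 47.2) and in 1700 of those other KO peaks (29.97%, 28.8 to 31.2). The sign of the first value depended on the scaling, as scaling by peaks at identical positions in both lists moved it to 0.11.

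Large changes of density were few. Among all 6704 KO peaks that met an sg-Ctrl peak, 0.149% were at least 2-fold denser in KO, and 7 of these were bridged islands. No bridged island was at least 2-fold less dense, against 1.43% of all those peaks. Because the islands were chosen by the same libraries, nothing is read from these counts. The highest log2 ratios were 1.42 on Olfr110, an olfactory receptor gene, and 1.27 on Fam135b, both named after their values were seen.

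The density ratio had a higher median in islands with a wide gap than in those with little gap, and the quartile ranges overlapped. In the 307 islands with 4 kb of gap in all, the median log2 density ratio was -0.12 (quartiles -0.28 to 0.06). In the 67 islands with a gap wider than 20 kb it was 0.07 (-0.11 to 0.30). The fold over IgG, as deposited, had a median of 2.79 (quartiles 2.17 to 3.43) in the islands and 2.53 in the joined sg-Ctrl peaks. Only 8 islands had a fold under 1 and 10 an FDR over 0.05.

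**Figure D3:**
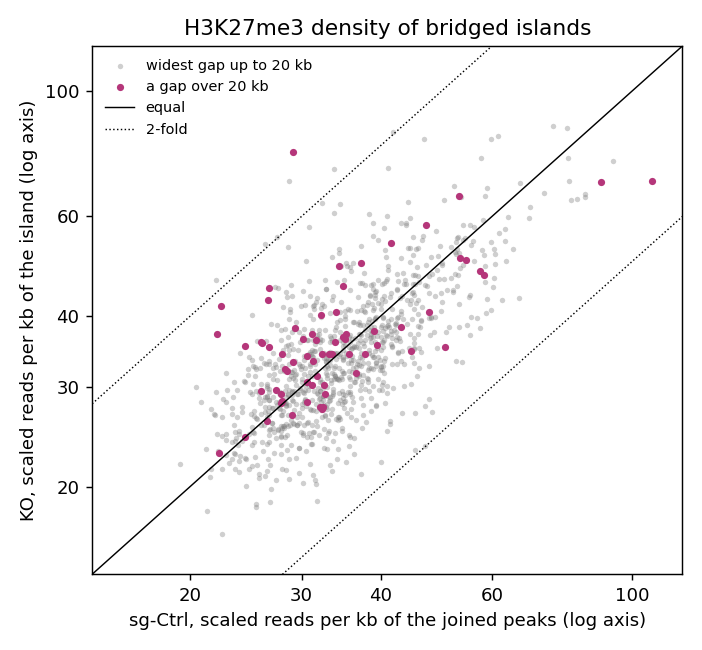
Each point is a bridged island, with scaled H3K27me3 reads per kb of joined peak in sg-Ctrl across and per kb of island in KO upward (both log axes), a solid line for equal density and dotted lines for a 2-fold difference. Points lie along the solid line, 7 lie at or above the upper dotted line, none lies below the lower one, and the 67 islands with a gap wider than 20 kb are spread among the rest.

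In the 697 islands that hold all their joined peaks, the excess of KO reads over sg-Ctrl peak reads was set against the added length. The added length comprised the gaps and the flanks. The lists hold no sg-Ctrl reads for that length, so none were subtracted for it. The excess is therefore not a gain of KO over sg-Ctrl in the added length. Scaled KO reads in the island less scaled sg-Ctrl reads in the joined peaks came to a median of 30.6 per added kb (quartiles 18.5 to 46.7). They exceeded 21.8, the 5th percentile of sg-Ctrl peak density, in 489 islands (70.2%, 66.7 to 73.4). The difference also takes up any change inside the joined peaks, which weighs less where more length was added. In the 147 islands whose added length was at least that of the joined peaks, the median was 31.2 (25.1 to 39.6), with 128 (87.1%, 80.7 to 91.6) above 21.8. In the 51 islands with a gap wider than 20 kb it was 35.7 (27.6 to 44.9), and 30 exceeded 32.5, the median density of sg-Ctrl peaks. The reverse difference was taken in the 178 split sg-Ctrl peaks that hold all their KO peaks. Scaled sg-Ctrl reads less scaled KO reads had a median of 60.1 per added kb there (quartiles 36.8 to 96.9). A positive difference was thus not particular to KO.

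IgG reads, which the choice of islands did not use directly, were sparser in the added length than in the joined peaks. The medians over the 697 islands were 10.6 reads per kb (quartiles 7.73 to 13.4) in the added length and 13.96 (11.3 to 17.2) in the joined peaks, and the added length was lower in 565 islands (81.1%, 78.0 to 83.8). In the 141 of them without a flank, where the added length is gap alone, the medians were 10.1 and 14.3. The same was seen in the 178 split sg-Ctrl peaks that hold all their KO peaks, with 11.2 and 14.9 and a lower added length in 136 (76.4%, 69.7 to 82.0). All 832 H3K27me3 peaks at identical positions in both lists had equal IgG reads, so both conditions were set against 1 IgG library. Peaks are called on the ratio of ChIP to IgG reads among other criteria, so IgG is not wholly independent of the choice.

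The islands with the longest summed gap show how much H3K27me3 was involved. On Col22a1, which encodes a collagen of tissue junctions, the KO island at chr15:71708001-71914000 had 27077 KO reads and 2395 IgG reads over 206 kb. In sg-Ctrl, 3 separate peaks of 22, 11 and 8 kb held 740, 252 and 202 reads there, the first of them on the neighbouring gene Fam135b. The gaps summed to 160 kb, of which 88.5 kb lay on the Col22a1 gene body. The widest gap, of 109 kb, crossed the space between both genes, where an unlisted sg-Ctrl peak would not be seen. The density was 49.1 scaled reads per kb in KO and 34.4 in the joined sg-Ctrl peaks, a log2 ratio of 0.51.

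On Gm5607 the KO island of 207 kb had 20330 reads, and its 3 sg-Ctrl peaks of 11, 9 and 26 kb had 345, 261 and 754. Its gaps summed to 146 kb, 128 kb of which were a single gap. The excess, defined as above, was 37.2 scaled reads per added kb, where IgG had 9.66. Pak7, which encodes a p21-activated kinase, had an island of 207 kb with 20584 KO reads over 3 sg-Ctrl peaks with 866 reads, and its widest gap of 138 kb was the widest of all. Both islands had nearly equal densities in both conditions, with log2 ratios of 0.07 and 0.08.

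The island on Ces1d, a liver carboxylesterase gene, had 22178 KO reads over 223 kb, whereas its sg-Ctrl peaks held 617 reads over 33 kb. The whole Ces1d gene, 31.7 kb long, lay in its gaps. The densities were 37.2 in KO and 22.1 in sg-Ctrl, a log2 ratio of 0.75, the highest of the 10 islands with the longest summed gap. Lsamp, which encodes a neuronal adhesion protein, had an island of 250 kb with 30222 KO reads against 4101 in 3 sg-Ctrl peaks. Its density was 45.2 scaled reads per kb in KO and 34.8 in the joined sg-Ctrl peaks. Its excess was 58.1 scaled reads per added kb, where IgG had 11.9. On 4930452N14Rik a single gap of 90 kb was bridged, and the density in scaled reads per kb was 34.8 for KO against 44.7 for sg-Ctrl, a log2 ratio of -0.36. Density thus went in either direction among the islands with the longest gaps.

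The 6 islands that joined 8 or more peaks were 227 to 570 kb wide. Nckap5, which encodes a large protein that binds the NCK adaptor, had an island of 423 kb that joined 13 sg-Ctrl peaks, with 46431 KO reads against 9770 in the joined peaks. Its gaps summed to 94 kb and none was wider than 19 kb. Its density was 41.0 scaled reads per kb in KO and 35.8 in the joined sg-Ctrl peaks. Nr3c2, the mineralocorticoid receptor gene, had 9 peaks joined over 233 kb with 98 kb of gap. Arhgap15, a gene for a Rac GTPase-activating protein, had 8 peaks joined with 134 kb of gap, Kalrn, a guanine nucleotide exchange factor gene, 8 with 77 kb, and Hmcn1, the gene of a large extracellular matrix protein, 8 with 42 kb. The Hmcn1 island was 570 kb wide, with 62587 KO reads over joined peaks that already covered 535 kb. The log2 density ratio of these 5 islands ran from 0.14 on Hmcn1 to 0.32 on Kalrn. Pnliprp2, a pancreatic lipase-related gene outside the rule for named genes, also had 8 peaks joined, with 34 kb of gap and a log2 density ratio of -0.08.

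**Figure D4:**
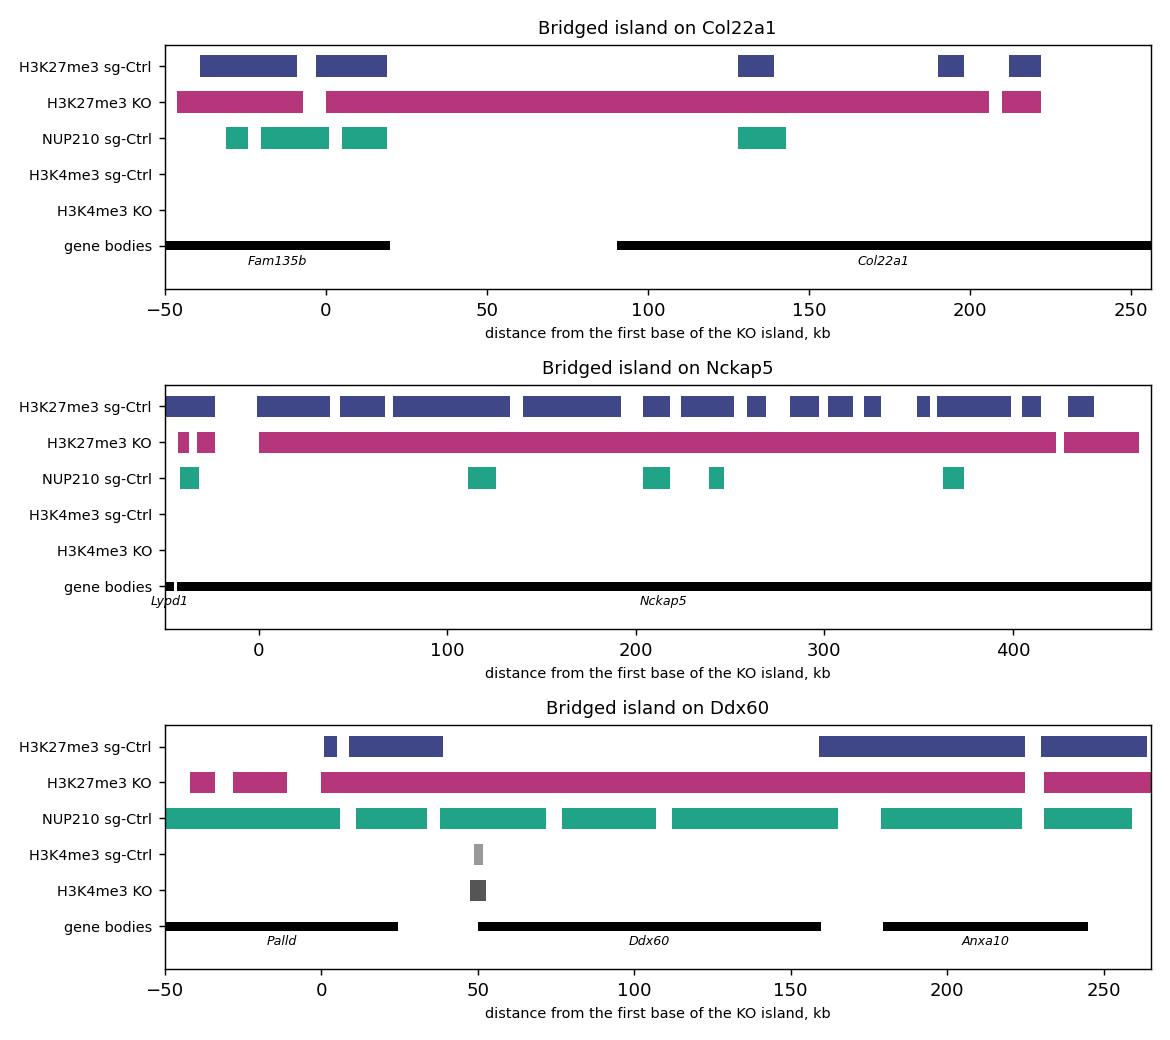
Peaks along 3 bridged islands and the genes around them are drawn to scale in kb from the first base of the KO island, with 1 line each for H3K27me3 in sg-Ctrl and KO, NUP210 in sg-Ctrl, H3K4me3 in sg-Ctrl and KO, and gene bodies that have a listed peak. A single KO bar spans 3 sg-Ctrl bars on Col22a1, 13 on Nckap5 and 3 on Ddx60. On Ddx60, NUP210 bars cover most of the island, its widest gap included, and an H3K4me3 bar stands at the gene start in both conditions.

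NUP210 peaks of sg-Ctrl cells met 607 of the bridged islands (58.8%, 55.8 to 61.8) and 2452 of the KO peaks that overlapped 1 sg-Ctrl peak (43.2%, 41.9 to 44.5), which were narrower. Within gene bodies, NUP210 peaks covered 38.4% of the length of the joined sg-Ctrl peaks, 21.2% of the bridged gaps and 22.0% of the flanks. Over all gene bodies with an H3K27me3 peak they covered 25.9%. By length, the gaps and flanks thus held less NUP210 than the joined H3K27me3 peaks beside them. NPC peaks gave the same order, with 35.2% of the joined peaks, 19.97% of the gaps, 20.4% of the flanks and 22.1% of the gene bodies.

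Gaps that were bridged could be compared with gaps left unjoined. A NUP210 peak met 325 of the 1301 bridged gaps of up to 20 kb in 1 gene (24.98%, 22.7 to 27.4) and 445 of the 1965 open gaps with a KO peak on both sides (22.6%, 20.8 to 24.5). By length, the peaks covered 20.02% of the bridged gaps and 13.8% of the open ones, and NPC peaks covered 19.4% and 12.3%. At equal width the bridged gaps had the higher share in each class, with 22.6% (19.3 to 26.4) against 17.0% (12.97 to 21.9) at 4 kb and 37.2% (29.99 to 44.99) against 29.8% (26.4 to 33.5) at 11 to 20 kb. The intervals overlapped in every class. Gaps of 1 gene can share a NUP210 peak, so the intervals, which treat gaps as independent, are too narrow. Gaps within split sg-Ctrl peaks had 27.2% of their length covered by NUP210.

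NUP210 enrichment over IgG was weak, and not in the gaps alone. In all, 391 of 1537 gaps met a NUP210 peak (25.4%, 23.3 to 27.7), and these gaps lay in 303 islands. With only those NUP210 peaks counted that reached 2-fold over IgG, 4 gaps did (0.260%, 0.101 to 0.667). Such peaks covered 0.240% of the length of all gene bodies with an H3K27me3 peak. Of the gaps up to 20 kb in 1 gene, they met 0.154% of the bridged and 0.153% of the open ones. They met 1.64% of the joined sg-Ctrl peaks. Individual islands differed widely. In the Ddx60 island NUP210 peaks covered 111 kb of the 124 kb of gap (89.5%), and 191 kb of the whole 225 kb. IgG had 22.1 reads per added kb in that island, against a median of 10.6 over the 697 islands above. In the Nr3c2 island NUP210 peaks covered 52 kb of 98 kb of gap (53.1%). The Pak7 island had 28.2%, Ces1d 23.5%, Arhgap15 11.2%, Col22a1 2.50% and Lsamp 1.10%, and the gaps of the Nckap5 island held none.

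Some wide gaps were bridged in islands that met no NUP210 peak at all. Of these islands, the 5 with the longest summed gap lay on Gm5607, 4930452N14Rik, Lypd6b, Kalrn and Grin2b. Lypd6b, which encodes a GPI-anchored modulator of nicotinic receptors, had 1 gap of 82 kb between 2 sg-Ctrl peaks with 3285 reads, in a KO island of 161 kb with 17504 reads. Its density was 40.6 scaled reads per kb in KO and 34.0 in the joined peaks. Grin2b, an NMDA receptor subunit gene, had 7 sg-Ctrl peaks with 2411 reads joined by an island of 182 kb with 16716 KO reads. The density was 34.3 scaled reads per kb in KO there and 27.9 in the joined peaks. The excess was 42.5 scaled reads per added kb in that island, where IgG had 7.05. These 5 islands held from 74 to 146 kb of gap.

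**Figure D5:**
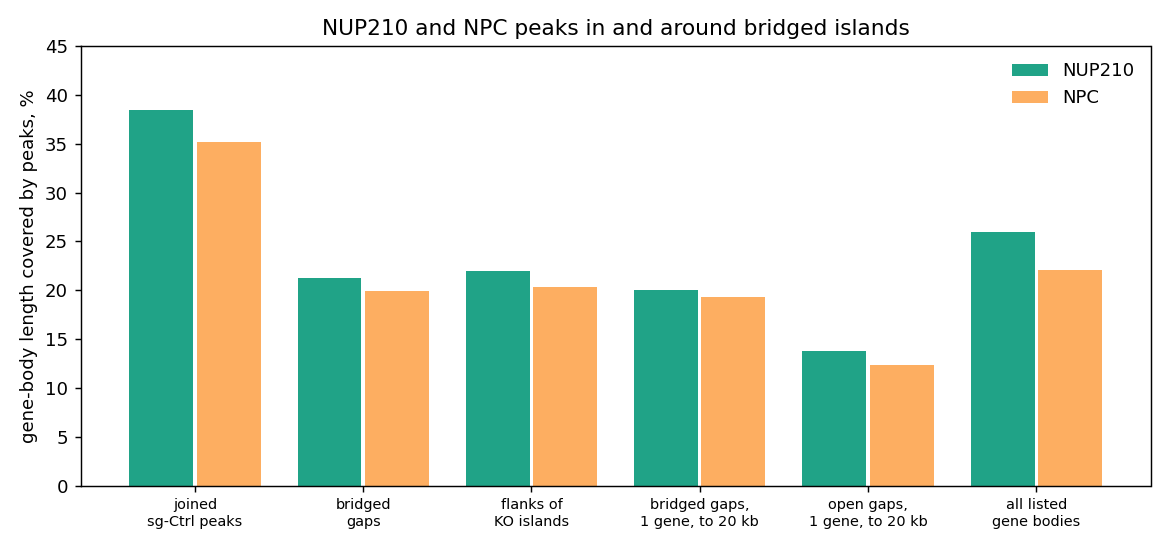
The bars give the share of gene-body length, in percent, that NUP210 peaks and NPC peaks of sg-Ctrl cells cover in the joined sg-Ctrl H3K27me3 peaks, bridged gaps, flanks, bridged and open gaps of up to 20 kb in 1 gene, and all gene bodies with an H3K27me3 peak, with 1 library per antibody and no error bars. The joined peaks have the highest bars at 38.4% and 35.2%, and the open gaps the lowest at 13.8% and 12.3%.

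At the 6 genes whose start lay in a bridged gap, the listed H3K4me3 peak differed from gene to gene. At Gbp2 the H3K4me3 peak had 3238 reads in sg-Ctrl and 1848 in KO. With reads scaled and divided by the peak's length, the log2 ratio was -1.39. The gap of 18 kb there lay in a KO H3K27me3 island of 100 kb, and the gene started 0.662 kb inside it. This was 1 of the 5 genes with a peak in both lists with a ratio of 0.5 or less, against 9.66% of 12196 genes with a peak in both lists. Scaled instead by H3K4me3 peaks at identical positions in both lists, 0 of the 5 had such a ratio. None had a ratio of 2 or more, against 0.525% of those genes.

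Ddx60 had 2292 H3K4me3 reads in sg-Ctrl and 2845 in KO, in a wider KO peak, with a log2 ratio of -0.83. Its start lay 11.1 kb inside a gap of 120 kb, and 108.9 kb of its 109.6 kb body lay in the gap, so H3K27me3 peaks covered the gene almost whole in KO and hardly at all in sg-Ctrl. The 2 H3K27me3 densities of that island were 89.2 scaled reads per kb of joined peak in sg-Ctrl and 69.0 in KO. In sg-Ctrl, Gng11 had 605 H3K4me3 reads and no listed peak in KO, and its gap was 4 kb wide. Myh13 had 234 and 560 reads, a log2 ratio of -0.09, in a peak upstream of its gap of 7 kb. Ifit1 and 2010002M12Rik start next to each other on opposite strands and share 1 peak with 218 and 154 reads, a log2 ratio of -0.04, in a gap of 13 kb. Over all genes with a peak in both lists the median log2 ratio was -0.50, and over the 29 genes that started in a joined sg-Ctrl peak it was -0.08 (-0.23 to 0.04). This was not particular to joined peaks. The median was -0.20 over 147 genes that started in other KO H3K27me3 peaks and -0.05 over 117 in sg-Ctrl H3K27me3 peaks alone. The median sg-Ctrl H3K4me3 reads were 270, 303 and 399 in these 3 groups, against 2187.5 over all genes.

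H3K4me3 took little of the bridged gaps or of the joined peaks. A peak at a gene start met 4 of the 1537 gaps in sg-Ctrl (0.260%, 0.101 to 0.667) and 3 in KO. It met 42 of the 2558 joined peaks in sg-Ctrl (1.64%, 1.22 to 2.21) and 9 of the 1965 open gaps (0.458%, 0.241 to 0.868). By length, sg-Ctrl H3K4me3 peaks covered 0.0817% of the gaps and 0.0690% of the joined peaks, and KO peaks 0.0686% and 0.137%. None of the 1301 bridged gaps of up to 20 kb within 1 gene met one (0 to 0.294%). The H3K4me3 lists hold only peaks near gene starts.

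Gene starts in the islands were mostly poor in CG. Protein-coding genes started in the gaps at 6.53 per Mb, in the joined peaks at 7.93 per Mb and in the flanks at 5.06 per Mb. A promoter was counted as CG-rich with an observed to expected CG ratio of at least 0.6 and a GC content of at least 50%. By this count 4 of 80 promoters in the gaps were CG-rich (5%, 1.96 to 12.2), 44 of 526 in the joined peaks (8.37%, 6.29 to 11.04) and 7 of 57 in the flanks (12.3%, 6.08 to 23.2), against 45.1% of all 21263. Other KO peaks were similarly poor, with 201 of 1850 (10.9%, 9.53 to 12.4), so this was not particular to the islands. The promoters printed above had 2 CG pairs in Gbp2, 6 in Ddx60 and 4 in Ifit1, in 300 bases each.

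Bridged gaps fell on 743 genes. Of the 4234 genes with an H3K27me3 peak in both lists, 723 had a bridged gap on the gene body, or 17.1%. These genes had a median length of 123 kb, and those without a gap 18.2 kb. The share was 7.49% (6.56 to 8.53) below 50 kb, 24.9% (22.3 to 27.8) from 50 to 200 kb, 51.1% (46.0 to 56.1) from 200 to 500 kb and 59.2% (50.9 to 66.9) from 500 kb. Gene length differed between the gene groups below, so their shares stand beside that of all genes in the length class of the group's median. Lengths also vary within a group. Differences from these shares were not tested, and nothing particular to a group is read from them.

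Synaptic and neuronal adhesion genes had a bridged gap about as often as all genes as long. Of the synaptic and neuronal adhesion genes with a peak in both lists, 16 of 28 had one (57.1%, 39.1 to 73.5), with a median gene length of 765 kb, against 59.2% of all genes of 500 kb and more. Mdga2, which encodes a GPI-anchored synaptic adhesion protein, had 115 kb of gap in 2 islands, and peaks covered 138 kb of its body in sg-Ctrl and 485 kb in KO. Cntn5, a contactin gene, had 72 kb of gap in 7 islands but was already covered over 1043 kb in sg-Ctrl, against 1117 kb in KO. Cntnap2, a neurexin-related gene, had 39 kb of gap while its covered length was 437 kb in sg-Ctrl and 369 kb in KO. Dlgap2, a postsynaptic scaffold gene, went from 120 kb to 478 kb with 30 kb of gap. A bridged gap and a longer covered body therefore did not always go together.

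Among the receptors for glutamate, GABA and glycine, 17 of 30 genes had a bridged gap (56.7%, 39.2 to 72.6) at a median length of 232 kb, against 51.1% of all genes of 200 to 500 kb. Grin2b led with 101 kb of gap, and its covered length was 154 kb in sg-Ctrl and 395 kb in KO. Grm8, a metabotropic glutamate receptor gene, had 53 kb of gap in 5 islands, and Gria3, an AMPA receptor gene, had 21 kb in 2. Voltage-gated channel genes had a gap in 11 of 34 (32.4%, 19.1 to 49.2). Their median length was 208 kb, close to the lower edge of the class with 51.1%. The class below it, from 50 to 200 kb, had 24.9%, so their share lay between the 2 classes. The potassium channel gene Kcnb2 had 53 kb of gap, and the calcium channel genes Cacnb4, Cacna1d and Cacna1b had 27, 20 and 14 kb. Covered length was greater in KO for all 4, for example 316 kb in sg-Ctrl and 379 kb in KO for Kcnb2.

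Cadherin and protocadherin genes had a gap in 14 of 51 (27.5%, 17.1 to 40.9), and axon guidance genes in 7 of 19 (36.8%, 19.1 to 59.0). Their median lengths were 125 kb and 363 kb. Of all genes, 24.9% had a gap from 50 to 200 kb and 51.1% from 200 to 500 kb. Pcdh15, a protocadherin gene of sensory hair cells, had 97 kb of gap in 6 islands, with peaks over 450 kb in sg-Ctrl and 594 kb in KO. Cdh18 and Cdh20, both cadherin genes, had 44 and 41 kb, and Pcdh9 had 18 kb. Ntng1, which encodes netrin G1, had 54 kb, and the netrin receptor gene Unc5c had 47 kb, with covered lengths of 146 kb in sg-Ctrl and 311 kb in KO. Slit3, a guidance ligand gene, had 24 kb of gap and Sema5a, a semaphorin gene, 22 kb. Sema5a was covered over 294 kb in sg-Ctrl and 275 kb in KO.

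Extracellular matrix and integrin genes had a bridged gap in 19 of 42 (45.2%, 31.2 to 60.1), with a median gene length of 167 kb. This was above the 24.9% (22.3 to 27.8) of all genes of 50 to 200 kb. Beside Col22a1, the collagen gene Col19a1 had 63 kb of gap in 4 islands and Tnr, which encodes tenascin R, 32 kb in 3. Col1a2, which encodes a chain of type I collagen, is only 35.8 kb long, and 21 kb of it (58.6%) was bridged gap, so that peaks covered 12.5 kb in sg-Ctrl and 33.5 kb in KO. Of the phosphodiesterase and G protein signalling genes, 10 of 31 had a gap (32.3%, 18.6 to 49.9), at a median length of 161 kb in the same class. Rgs6, a regulator of G protein signalling, had 68 kb and no NUP210 peak on its body. The phosphodiesterase gene Pde11a had 38 kb, the phospholipase C gene Plcb1 36 kb and Rgs20 27 kb.

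Groups of shorter genes had lower shares, as all genes of such length did. Developmental transcription factor genes, classic Polycomb targets, had one in 7 of 50 (14%, 6.95 to 26.2) with a median length of 22.7 kb, against 7.49% of all genes below 50 kb. Among them, Sox6 had 22 kb of gap, Ebf2 19 kb and Ebf4 18 kb. None of 22 Wnt, FGF and TGF-beta signalling genes had one, which allows a share of up to 14.9% by the Wilson interval, at a median length of 40.8 kb. Chemokine, cytokine and receptor genes, with a median length of 16.4 kb, had one in 4 of 38 (10.5%, 4.17 to 24.1). These were Il15, a cytokine for natural killer and memory T cells, with 34 kb of gap, Il1rapl2 with 9 kb, Il2ra with 6 kb and Il23r with 4 kb. Il15 was covered over 9.59 kb in sg-Ctrl and along all of its 71.0 kb in KO. Of the genes that the study examined individually and that are given here, Ptk2, the focal adhesion kinase gene, had peaks in both lists and no bridged gap, with 44 kb covered in sg-Ctrl and 42 kb in KO. Postn, the periostin gene, had H3K27me3 over 18.9 kb in KO alone and no bridged gap.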

How the data were processed

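Peak lists of 6 ChIP-seq libraries of 4T1 cells were analysed. By their methods, the authors used SICER to call peaks over IgG, taking a window of 1000 bp for H3K27me3 and NUP210 and of 200 bp for H3K4me3, and the NPC peaks lie on a 1000-bp grid. For each peak the authors deposited raw counts of ChIP and IgG reads, a p-value, its FDR and the fold, a ratio of ChIP to IgG reads scaled by library size. Each list pairs peaks with gene bodies (H3K4me3: gene starts), so peaks outside them were not analysed here, and repeated entries were collapsed to distinct positions. The column for the overlap of peak and gene was not used.

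The ratio of ChIP to IgG library size was recovered from the counts and fold, and for H3K27me3 it is 0.847 in sg-Ctrl and 2.68 in KO, and for H3K4me3 it is 1.06 and 1.35. ChIP reads were divided by it. Reads in H3K27me3 peaks summed to 7719297 in sg-Ctrl and 26811061 in KO; total depth is unknown beyond these values. Bridged islands needed 1 bp of overlap with each of at least 2 sg-Ctrl peaks. A gene start counted as lying in a gap by its position. Shares have 95% Wilson intervals and medians of log2 ratios 95% order-statistic intervals. In simulated lists all 200 bridged islands and all 80 split ones that had been set were recovered, and a log2 density ratio set to 0.58 came back as 0.58. This checked the coding of the overlap rule and of the scaling alone. Peaks were placed ready-made there, so peak calling and its dependence on depth were not simulated.

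With 1 library per condition no test over replicates was made. The islands, gene lists, motif and comparisons were chosen with earlier results of these data known. Named genes lie on the 10 islands with the longest summed gap, the 5 that join the most peaks and the 5 with the longest gap and no NUP210 peak, start in a gap with H3K4me3 in sg-Ctrl (at most 10), have the longest gap in a gene list (at most 4 per list), or were examined individually by the study. Some genes that this rule names are not reported here. The lists of genes were made by symbol. Other FDR and fold limits, overlaps, scalings, gap limits and autosomes alone were tried as alternatives. Of 5379 gene names matched to GRCm38.p6, 89.0% had a start or an end within 50 bp of it, so positions are given in that build. RefSeq promoters of that build were matched for 3666 of 5853 gene names. RNA-seq of 4 samples was not analysed here, and the 3 IgG samples were used through the IgG counts of the lists. Scripts ran in Python 3.11.15 with pandas 2.3.3, numpy 2.4.6, matplotlib 3.10.9 for plots and scipy 1.17.1.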

Additional observations from a re-analysis of the deposited data

How the results depend on the processing

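Of 52 alternative values for 8 results, 37 kept their direction and stayed within 1.5 times the value for numbers of islands, their ratio and the gap sum, or within its interval for the rest. Another 12 moved further and 3 reversed. Bridged islands numbered 632 with a fold of at least 2 in both lists, by construction from fewer peaks, when the ratio of bridged to split islands was 3.85 and the gaps summed to 8.57 Mb, and 690 with peaks closer than 5 kb merged. The ratio was 4.91 with that limit on KO peaks alone, and at least 2.54 under every alternative. Limits on the density of KO peaks alone were chosen after seeing the data. The median log2 density ratio of the islands was 0.11 when scaled by peaks at identical positions, 1.62 without scaling, 0.018 by the authors' fold and -0.059 with a fold of at least 2. The choice of scaling sets its sign. The share of sg-Ctrl pairs bridged was 37.3% up to 10 kb and 26.3% up to 50 kb. The share of gaps meeting NUP210 was 20.04% and 18.2% with a NUP210 FDR of at most 0.05 and 0.01, 0.260% with a NUP210 fold of at least 2, 22.0% with an H3K27me3 FDR of at most 0.01 and 18.7% when NUP210 had to cover at least 50% of the gap. The share of H3K4me3 gene starts in gaps with a KO ratio of 0.5 or less was 20%, and 0% when scaled by H3K4me3 peaks at identical positions. Genes with a bridged gap were 15.3% with a fold of at least 2. Beyond these constructions the cause was not tested. No paired analysis was possible because each ChIP condition has 1 library, and the RNA-seq replicates were not analysed here. With 1 library per condition, 1 clone and a deeper KO library, depth, clone and knockout cannot be told apart.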

Other observations

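Some genes were bridged in several places. Gaps of 2 or more islands fell on 176 genes and gaps of 5 or more on 14, chosen here after their values were seen. March1, which encodes a membrane-bound ubiquitin ligase, had 8 islands. Cntn5, the neuronal transcription factor gene Npas3 and the splicing factor gene Rbfox1 had 7 each, and Galntl6, a glycosyltransferase gene, and Pcdh15 had 6 each.

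Other genes lay whole inside a bridged island. There were 174 such genes with a gap on the body, among them Ddx60 and the collagen gene Col3a1, and 8 of them had an H3K4me3 peak at the start in sg-Ctrl and 7 in KO. In 20 cases the whole gene lay in the gaps, with no H3K27me3 peak on it in sg-Ctrl. These included 8 olfactory receptor genes, the defensin genes Defb4, Defb15 and Defb35, the protocadherin gene Pcdhb6, the lymphocyte GTPase gene Gimap7 and Ces1d, at 31.7 kb the longest of them. Most are short genes of large families.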
